A study of Mus musculus with 8 samples.

Results

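Genes of macrophages and dendritic cells were followed in the mucosa of the mouse rectum and colon. The 10 genes were Adgre1, Cd163, Clec10a, Mrc1, Csf1r, Cd68, C1qa, C1qb, Itgax and Lyz2. They were picked by name as genes typical of these cells, with earlier results of these data known. Probes of 8 of the 10 were found through their transcript accession, among 12720 named genes that could be tested; Csf1r and Cd68 were not matched to a probe and were not analysed here.

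Tissue macrophages take up dying cells, microbes and debris through surface receptors, break the material down in lysosomes and secrete components of complement. In the gut wall many of them descend from blood monocytes that mature in the tissue under the growth factor Csf1. Both Csf1 and Il34 bind the receptor encoded by Csf1r. Conventional dendritic cells take up antigen too, but carry it to lymph nodes and present it to T cells on MHC class II; they depend on Flt3 and express Zbtb46.

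Each of the 8 groups was a single array of RNA from 5 mice mixed in equal amounts, and no group was repeated. The rectum groups were IL18ko stress, IL18ko control, WT stress and WT control, and the colon groups were the same 4; IL18ko mice are knockouts of the cytokine interleukin 18 and WT mice are wild type. All mice were brothers kept together after weaning until 10 to 12 weeks of age; the stress mice, 3 of each 5, were then housed singly for 8 days by one label and 16 days by another, and the control mice were taken before isolation, so that housing and age cannot be told apart. The rectum mucosa was that of the 7 mm next to the anus, and the colon mucosa came from 2.5 to 3.5 cm below the ileocecum. The labels do not say whether the rectum and colon pools shared mice, and if they did, the 4 pairs of the genotype or the stress comparison stand for 2 pairs of mouse groups.

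Levels are given as log2 signal relative to the 75th percentile of the same array, so that 0 is the signal at that percentile and a difference of 1 is a doubling. On each array 62.2% to 66.4% of spots were well above background and none was saturated; with 1 array a group, the number of arrays limits the precision. All rectum arrays were on 1 slide and all colon arrays on another, so that tissue and slide cannot be told apart. On none of the 4 IL18ko arrays was Il18 well above background, with levels of -8.01 to -7.62, against 5.81 and 4.34 in the rectum and 2.83 and 2.68 in the colon of WT stress and WT control mice. Skeletal muscle genes, of which 8 of 12 were called higher in the rectum, 4 of these being well above background on all 8 arrays, had a summed signal of 6.68 to 163 times the 75th percentile on rectum arrays, against 3.22 to 5.72 on colon arrays. Their median level was highest in IL18ko control rectum.

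The brightest probe of each of the 8 genes was well above background on all 8 arrays. The label was set against further genes of both cell types. Of 24 matched genes of tissue macrophages, 20 were well above background on all 8 arrays, among them Fcgr1, Mertk, Cx3cr1 and Aif1, while Vsig4 was so on 3 and Siglec1 and Clec4a1 on none. Of 21 matched dendritic cell genes, 11 were well above background on all 8 arrays, among them Zbtb46, Xcr1, Batf3, Itgae and Ly75, while Flt3 was so on 2 and Clec9a, Ccr7 and Cd209a on none. Itgax, the integrin used to mark dendritic cells, is also found on gut macrophages.

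The promoters of 4 of the genes are shown because PU.1, the transcription factor encoded by Spi1, is required for the formation of macrophages and binds purine-rich sites with the core GAGGAA. Mrc1, C1qb and Cd163 were among the genes higher in the rectum, and Itgax is shown as one that was not called. The sequences are those of RefSeq on GRCm38.p6, from 250 bases before to 50 bases after the gene's start, written along the gene's strand, with GAGGAA or its reverse complement TTCCTC in capitals. They lie at chr2:14229164-14229463 on the plus strand (Mrc1), chr4:136886151-136886450 on the minus strand (C1qb), chr6:124304401-124304700 on the plus strand (Cd163) and chr7:128129300-128129599 on the plus strand (Itgax).
Mrc1: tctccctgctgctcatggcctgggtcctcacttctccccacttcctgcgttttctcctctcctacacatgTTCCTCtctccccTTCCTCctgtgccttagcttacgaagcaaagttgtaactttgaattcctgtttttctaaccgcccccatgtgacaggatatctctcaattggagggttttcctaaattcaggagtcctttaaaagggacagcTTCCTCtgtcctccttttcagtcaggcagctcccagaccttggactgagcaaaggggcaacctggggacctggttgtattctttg
C1qb: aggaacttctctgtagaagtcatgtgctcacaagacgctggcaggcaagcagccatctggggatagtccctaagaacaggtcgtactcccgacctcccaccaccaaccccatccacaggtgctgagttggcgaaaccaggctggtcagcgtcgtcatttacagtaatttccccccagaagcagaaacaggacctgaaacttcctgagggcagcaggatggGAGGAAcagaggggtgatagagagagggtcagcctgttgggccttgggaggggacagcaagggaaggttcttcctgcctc
Cd163: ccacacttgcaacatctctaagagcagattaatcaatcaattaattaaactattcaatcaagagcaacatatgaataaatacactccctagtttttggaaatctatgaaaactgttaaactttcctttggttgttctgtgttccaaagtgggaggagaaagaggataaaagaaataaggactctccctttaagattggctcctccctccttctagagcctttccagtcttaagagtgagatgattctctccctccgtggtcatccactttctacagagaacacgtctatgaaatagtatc
Itgax: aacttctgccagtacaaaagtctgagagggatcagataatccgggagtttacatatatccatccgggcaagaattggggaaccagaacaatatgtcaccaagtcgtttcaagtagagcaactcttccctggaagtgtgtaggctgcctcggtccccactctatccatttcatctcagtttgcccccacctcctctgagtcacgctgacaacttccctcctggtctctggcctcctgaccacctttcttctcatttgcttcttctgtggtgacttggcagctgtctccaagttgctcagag
The table held promoters of 6 of the 10 genes. The letters occurred 3 times in the Mrc1 window, once in the C1qb window and 2 times in that of Cd68, and were not found in the windows of Cd163, Itgax and Lyz2. Over all 32851 promoters of the same length, 28.3% held the motif on either strand, which cannot overlap itself. A match of 6 letters is a description and no site of binding. The probe of Spi1 itself was not well above background on any array.

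The first comparison was between the tissues. Of the 8 genes, 5 were higher in the rectum than in the colon (limma on the 4 matched differences, adjusted p under 0.05 over all probes), namely Clec10a, Cd163, Mrc1, C1qb and C1qa, and none was lower. Among all tested genes 15.1% were called higher and 15.3% lower. For the same 5 of 8, every rectum array lay above every colon array, as it did for 18.0% of all genes. The median difference of the 8 genes was 0.81, against 0.05 for all genes. In pooled tissue, more cells of a type and more RNA per cell cannot be told apart.

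**Figure D1:**
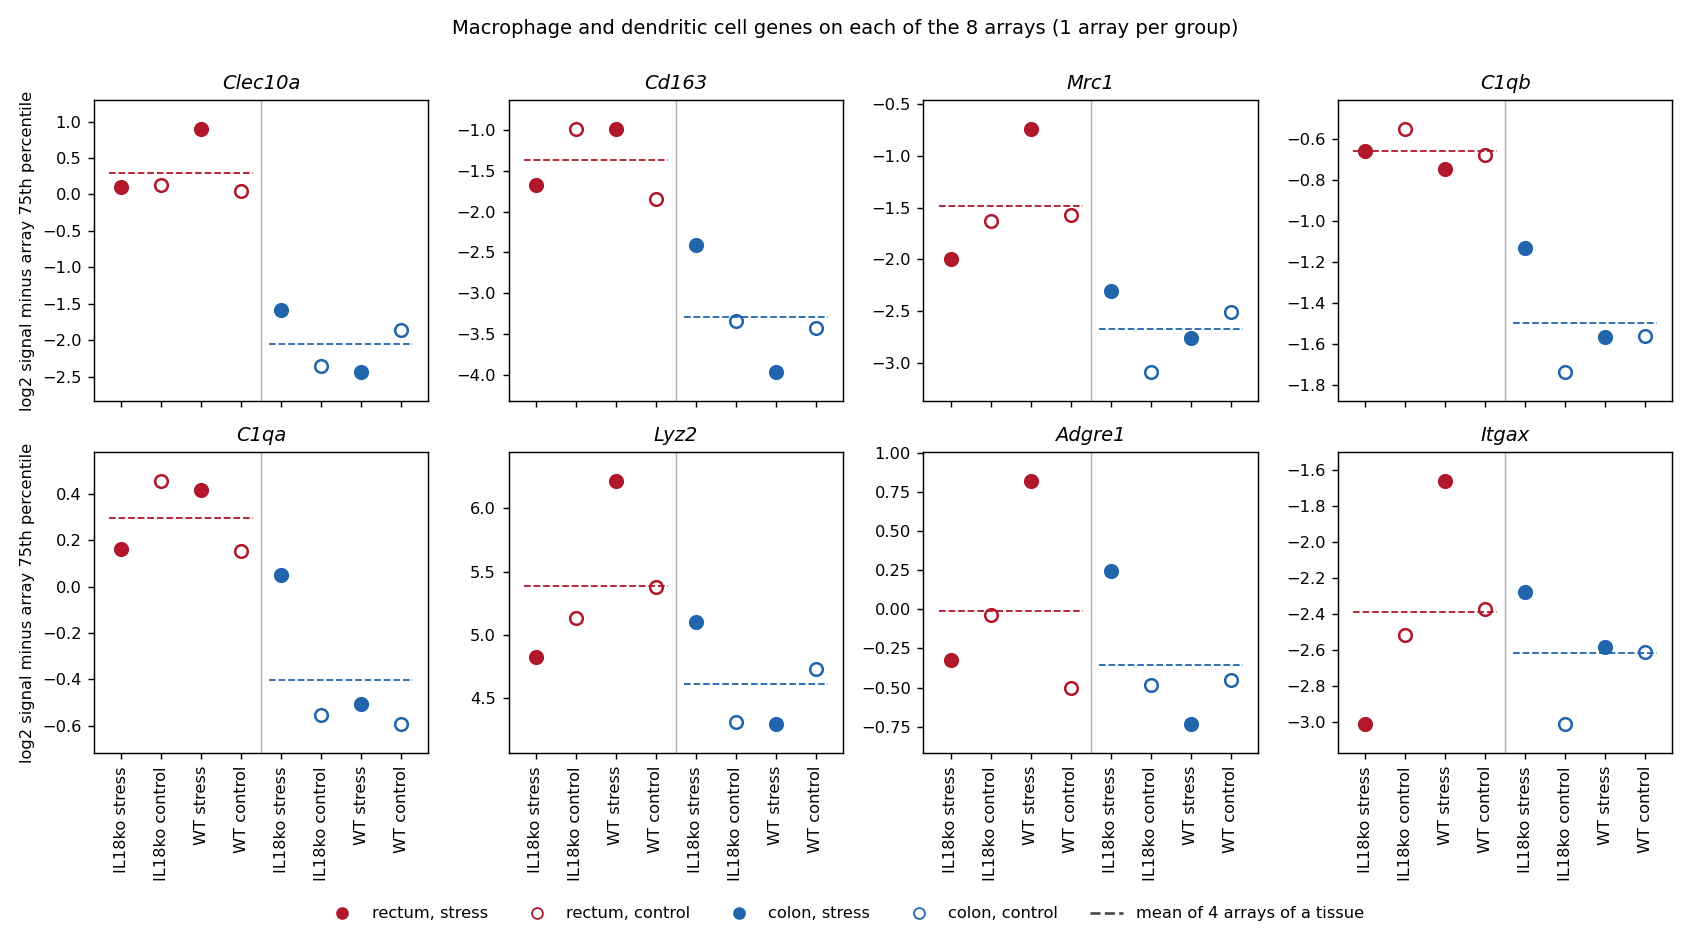
Level of each gene on each of the 8 arrays (log2 signal minus the array's 75th percentile; each panel has its own scale), rectum in red and colon in blue, filled for stress and open for control, with a dashed line at the mean of the 4 arrays of a tissue. The 4 rectum arrays lie above the 4 colon arrays for Clec10a, Cd163, Mrc1, C1qb and C1qa, while the tissues overlap for Lyz2, Adgre1 and Itgax.

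Clec10a encodes a C-type lectin that binds galactose and N-acetylgalactosamine and is carried by macrophages and some dendritic cells. Its levels in the rectum were 0.10 in IL18ko stress, 0.14 in IL18ko control, 0.90 in WT stress and 0.05 in WT control, against -1.58, -2.35, -2.44 and -1.85 in the colon in the same order of groups. The rectum arrays thus stood apart from the colon arrays by more than the range within either tissue. The difference was 2.35 ± 0.27 (SE from limma, 4 pairs, adjusted p = 0.00127), which is 5.11-fold, and it ranged from 1.69 in IL18ko stress to 3.34 in WT stress.

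Cd163, the scavenger receptor through which macrophages take up haemoglobin bound to haptoglobin, had levels of -1.67 in IL18ko stress, -0.99 in IL18ko control, -0.99 in WT stress and -1.85 in WT control rectum, against -2.41, -3.34, -3.97 and -3.42 in colon. The groups did not overlap, and IL18ko stress colon was the colon array nearest to the rectum. The difference was 1.91 ± 0.35 (SE from limma, 4 pairs, adjusted p = 0.00835), or 3.77-fold.

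Mrc1, the mannose receptor, takes up glycoproteins that end in mannose. It had levels of -2.00, -1.63, -0.74 and -1.57 in IL18ko stress, IL18ko control, WT stress and WT control rectum, against -2.30, -3.09, -2.76 and -2.51 in colon. The tissues did not overlap, but IL18ko stress rectum and IL18ko stress colon were close to each other. The difference was 1.18 ± 0.27 (SE from limma, 4 pairs, adjusted p = 0.0201), or 2.27-fold.

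C1qa and C1qb encode 2 of the 3 chains of C1q, the molecule that starts the classical complement pathway and that tissue macrophages secrete. C1qb had levels of -0.66, -0.55, -0.75 and -0.68 in IL18ko stress, IL18ko control, WT stress and WT control rectum, against -1.13, -1.74, -1.57 and -1.56 in colon. Its 4 rectum arrays were the most alike of any of the 8 genes, and the difference was 0.84 ± 0.14 (SE from limma, 4 pairs, adjusted p = 0.00622). C1qa had levels of 0.16, 0.45, 0.42 and 0.16 in the same rectum groups, against 0.05, -0.55, -0.51 and -0.59 in colon. IL18ko stress colon was again the colon array nearest to the rectum, and the difference was 0.70 ± 0.17 (SE from limma, 4 pairs, adjusted p = 0.0238). The third chain, C1qc, lies between C1qb and C1qa on chromosome 4 and was looked up for that reason after the values had been seen. It was higher by 0.84 ± 0.25 (SE from limma, 4 pairs, adjusted p = 0.0495), with rectum arrays at 1.08 to 1.88 and colon arrays at 0.246 to 1.19.

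Lyz2 encodes lysozyme M, which cleaves bacterial cell walls and is made by macrophages, monocytes and neutrophils. Its brighter probe had levels of 4.83, 5.13, 6.21 and 5.38 in IL18ko stress, IL18ko control, WT stress and WT control rectum, against 5.10, 4.31, 4.30 and 4.73 in colon. In IL18ko stress mice the rectum was below the colon, and the difference of 0.78 ± 0.31 did not pass the test (SE from limma, 4 pairs, adjusted p = 0.115). The second Lyz2 probe was higher in the rectum in 4 of 4 pairs, with means of -1.72 in rectum and -2.44 in colon. Its difference was of about the same size, 0.72 ± 0.17, and was called (SE from limma, 4 pairs, adjusted p = 0.0235). Lyz1, a near-identical copy that is known from Paneth cells of the small intestine, is the neighbour of Lyz2 on chromosome 10, and whether the probes also take up its transcript was not tested.

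Adgre1, a surface receptor whose protein is widely used to mark mouse macrophages, and Itgax, the integrin alpha X chain CD11c, were not called. Adgre1 had levels of -0.32, -0.03, 0.82 and -0.50 in IL18ko stress, IL18ko control, WT stress and WT control rectum, against 0.24, -0.48, -0.74 and -0.45 in colon. WT stress rectum stood well above the other 7 arrays, which overlapped between the tissues, and the difference was 0.35 ± 0.32 (SE from limma, 4 pairs, adjusted p = 0.465). Itgax had levels of -3.01, -2.52, -1.66 and -2.37 in the same rectum groups, against -2.27, -3.01, -2.58 and -2.61 in colon. It too was highest in WT stress rectum, and the difference was 0.23 ± 0.26 (SE from limma, 4 pairs, adjusted p = 0.562). Without the WT stress pair, the differences were -0.06 for Adgre1 and -0.0029 for Itgax. A second probe of Adgre1 was well above background on 1 of 8 arrays and was not tested.

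The genes were therefore not higher in the rectum by 1 common factor. Within each pair of arrays, the rise of Clec10a exceeded the difference of Adgre1 by 1.78 to 2.25 in 4 of 4 pairs, and that of Cd163 exceeded it by 1.31 to 1.91. Mrc1 exceeded Adgre1 by 0.46 to 1.01. C1qb and C1qa were alike, with differences that lay within 0.36 of each other in every pair, and C1qa exceeded Adgre1 in 3 of 4 pairs. These are unequal changes between probes on the same arrays, and they do not show that any of the genes did not change.

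**Figure D2:**
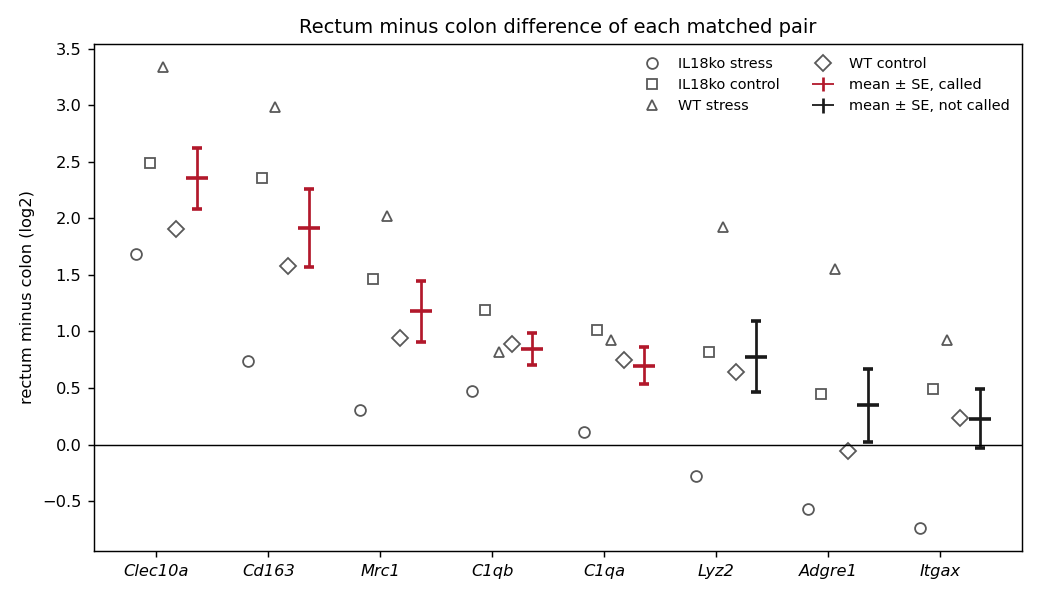
Rectum minus colon difference (log2) of each gene in the 4 matched pairs (grey symbols) with the mean and limma's standard error (bars, red where the adjusted p was under 0.05). IL18ko stress was the smallest and WT stress the largest difference for Clec10a, Cd163, Mrc1, Lyz2, Adgre1 and Itgax.

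The IL18ko stress pair gave the smallest difference for all 8 genes, and the WT stress pair gave the largest for 6 of them, the exceptions being C1qa and C1qb. Whether the tissue difference depended on genotype was tested, and no gene passed (limma, adjusted p from 0.777 to 0.984; 0 of 8, and 0.00% of all genes); the IL18ko minus WT estimate was negative for all 8, from -1.01 for Lyz2 to -0.02 for C1qb. The test of a dependence on housing called none of the 8 and 0.00% of all genes either. Over all probes, 837 and 170 had an unadjusted p under 0.05 in these tests. The count of called genes changed with 3 of the 4 pairs. Without the IL18ko control pair or without the WT control pair, 3 of 8 were called, and Mrc1 (adjusted p = 0.0888 and 0.0692, limma on 3 pairs) and C1qa (0.119 and 0.111) were lost. Without the IL18ko stress pair 6 of 8 were called, with Lyz2 added at 1.13 (adjusted p = 0.0208, limma on 3 pairs). The calls over the whole array moved as well. With 4 pairs, 7219 of the 26273 probes tested were called between the tissues. Without the IL18ko control pair 3798 were called, and without the WT control pair 3512. Without the IL18ko stress pair 5597 were called, and without the WT stress pair 10738.

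Other genes of the phagocyte system were then counted by function. Over all genes, 15.1% were called higher and 15.3% lower in the rectum. Of 21 tested receptors and other genes of tissue macrophages, 10 were higher in the rectum and none was lower (limma, adjusted p under 0.05), with a median difference of 0.60 over the list; 9 of the 10 were well above background on all 8 arrays. The exception was Timd4, a receptor for phosphatidylserine on dying cells, which passed the filter through its 4 rectum arrays, at -5.25 to -3.31. It was well above background on 1 colon array, WT control, where it stood at -4.72, above the -5.25 of WT control rectum, so that its call rests on 3 colon arrays where it was not well above background. Folr2, the folate receptor beta of tissue macrophages, was higher by 2.16 ± 0.14 (SE from limma, 4 pairs, adjusted p = 0.000124), with -1.05 to -0.34 on rectum arrays and -3.16 to -2.29 on colon arrays. Genes in wide use as macrophage markers fell on both sides of the threshold. The chemokine receptor Cx3cr1 (0.24), the engulfment receptor Mertk (-0.15), the Fc receptor Fcgr1 (0.17) and Aif1 (-0.02) were not called. The Fc receptors Fcgr3 (0.69, adjusted p = 0.0233, limma) and Fcgr2b (0.91, adjusted p = 0.0442, limma) were higher. So were Fcer1g, a signalling chain of activating Fc receptors (0.53, adjusted p = 0.0433, limma), and the scavenger receptor Msr1 (0.98, adjusted p = 0.0122, limma). These 8 were picked after their values had been seen. Without the IL18ko control pair 4 of the list were called higher, without the WT control pair 5, and with no filter on dim probes 6. Over all probes, 3670 were called higher in the main fit, against 1573, 1518 and 3179 in these settings. The counts of the lists below without a pair stand beside the same changes over all probes.

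The partners of C1qa and C1qb in complement came next. Of 10 tested, 6 were higher in the rectum and none was lower, with a median of 0.89, against 15.1% and 15.3% of all genes. Cfp, which encodes properdin and stabilises the convertase of the alternative pathway, was higher by 1.05 ± 0.17 (SE from limma, 4 pairs, adjusted p = 0.00469). The count was 1 without the IL18ko control pair and 2 without the WT control pair.

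Among 16 growth factors and transcription factors of macrophages, 2 were higher and 1 was lower in the rectum, with a median of 0.08. Neither count exceeded the share of all genes, which was 15.1% higher and 15.3% lower. Il34, a ligand of the receptor encoded by Csf1r, was higher by 1.74 ± 0.14 (SE from limma, 4 pairs, adjusted p = 0.000304); it had levels of 0.355 to 1.21 in rectum and -1.29 to -0.749 in colon. The nuclear receptor Nr1h3, which regulates cholesterol export in macrophages, was higher by 0.64 ± 0.15 (adjusted p = 0.0214, limma). The inhibitor of DNA binding Id3 was lower, at -0.41 ± 0.10 (adjusted p = 0.0244, limma), a call that was lost without the IL18ko stress, the IL18ko control or the WT control pair; without the WT stress pair 4 of the list were higher and 5 lower, and without the IL18ko control or the WT control pair 1 was higher. In the deposited ratios no gene of the list was lower. Over all probes, too, more were called without the WT stress pair, 10738 against 7219 with 4 pairs. Fewer were called without the IL18ko control pair (3798) or the WT control pair (3512). Csf1, the other ligand, was examined beside Il34 and was not called (0.50 ± 0.20, adjusted p = 0.108, limma on 4 pairs).

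Of 22 dendritic cell genes, 12 could be tested. Where 15.1% of all genes were called higher and 15.3% lower, 2 of the 12 were higher and none lower, with a median of 0.18. The 2 higher genes, a share near that of all genes, were Ly75 and Naaa. Ly75, the endocytic receptor DEC-205, was at 0.53 ± 0.10 (SE from limma, 4 pairs, adjusted p = 0.0112). Naaa, a lysosomal amidase, was at 0.53 ± 0.11 (adjusted p = 0.0145, limma). Without the IL18ko control pair or the WT control pair neither direction held a called gene; without the WT stress pair 1 was lower. The lineage gene Zbtb46 differed by -0.07 ± 0.20 (adjusted p = 0.835, limma on 4 pairs), and Xcr1, the chemokine receptor of cross-presenting dendritic cells, by 0.55 ± 0.18 (adjusted p = 0.0642, limma). Neither was called, and both were picked afterwards. None of 7 MHC class II genes was called, with a median of 0.17.

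Genes linked to monocyte recruitment went both ways, 5 of 14 higher and 3 lower, with a median of 0.41, against 15.1% and 15.3% of all genes. The list holds chemokines and their receptors that act on monocytes and other leukocytes, and also Ly6c1 and Plac8, which are neither. Both are named for that reason and were among the 5 higher, at 0.75 (adjusted p = 0.00428, limma) and 0.33 (adjusted p = 0.0476, limma). Ccl24, a ligand of Ccr3 made by macrophages, was higher by 2.24 ± 0.17 (SE from limma, 4 pairs, adjusted p = 0.000256), and Ccl2, which draws monocytes through Ccr2, by 0.95 ± 0.28 (adjusted p = 0.0482, limma). Ccl9 and the T cell and macrophage chemokine Ccl5 were lower, at -2.52 ± 0.12 (adjusted p = 4.07e-05, limma) and -1.95 ± 0.22 (adjusted p = 0.00131). Without the IL18ko control or the WT control pair 3 were called higher, and without the WT stress pair 5 were lower; with no filter on dim probes or no variance trend 3 were higher.

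Of 10 tested genes linked to states of macrophage activation, 4 were higher and 2 lower, with a median of 0.17. The shares over all genes were 15.1% and 15.3%. The 2 that rose most are known from macrophages exposed to interleukin 4. Retnla was higher by 2.35 ± 0.24 (SE from limma, 4 pairs, adjusted p = 0.000766) and Chil3, well above background on 3 of 4 colon arrays, by 1.82 ± 0.25 (adjusted p = 0.00284, limma). Arg1, also known from such macrophages, was looked up afterwards and was not called (-1.25 ± 0.90, adjusted p = 0.346, limma on 4 pairs). It was higher in the 2 IL18ko pairs (1.63 in stress, 0.32 in control) and lower in the 2 WT pairs (-3.69 and -3.26). Arg1 was well above background on 2 of 4 rectum arrays. Its difference between the genotypes was not called either (2.01 ± 0.88, adjusted p = 0.321, limma on 4 pairs). Tnf, an inflammatory cytokine, was lower, at -1.39 ± 0.19 (adjusted p = 0.00246, limma), and so was Il4ra, the receptor chain for interleukin 4, at -1.35 ± 0.17 (adjusted p = 0.00167). Mgl2, the neighbour and close relative of Clec10a on chromosome 11, was looked up for that reason and was not called (0.18 ± 0.17, adjusted p = 0.461, limma on 4 pairs). Without the IL18ko control or the WT control pair 2 of the list were higher, and in the deposited ratios 1 was higher and 1 lower.

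Lysosomal genes of phagocytes were higher for 8 of 22 and lower for none, with a median of 0.36, against 15.1% and 15.3% of all genes. Gpnmb, a lysosomal glycoprotein, was higher by 1.88 ± 0.17 (SE from limma, 4 pairs, adjusted p = 0.000532); without the WT stress pair 3 of the list were lower. Many other cells hold lysosomes as well.

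**Figure D3:**
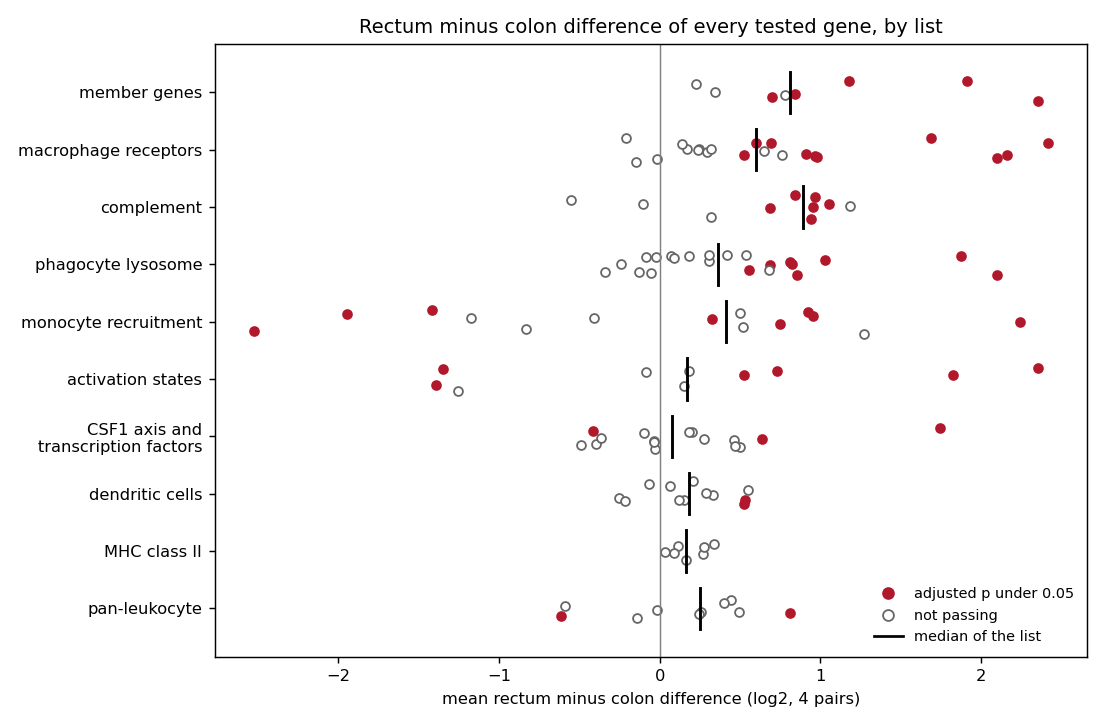
Mean rectum minus colon difference (log2, 4 pairs) of every tested gene of the 8 measured genes and of 9 further lists, filled where the adjusted p was under 0.05, with a bar at the median of each list. Macrophage receptors, complement and lysosomal genes hold calls on the higher side only, recruitment and activation genes on both sides, and MHC class II none. The macrophage gene farthest right is Timd4, not well above background on 3 of 4 colon arrays.

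Of 10 genes common to all leukocytes, 1 was higher, Vav1 at 0.81 ± 0.20 (SE from limma, 4 pairs, adjusted p = 0.0244), and 1 was lower, Rac2 at -0.61 ± 0.13 (adjusted p = 0.0138, limma). Both calls were lost without the IL18ko stress, the IL18ko control or the WT control pair. For this and the lists that follow, the shares over all genes were 15.1% higher and 15.3% lower. The summed signal of the 10 was 3.82 to 6.37 times the 75th percentile on rectum arrays, against 3.70 to 5.07 on colon arrays. Markers of several other cell types moved with the tissue. Of 16 matched genes of neutrophils and eosinophils, 1 was well above background on all 8 arrays, S100a9, which squamous epithelium and monocytes also make, and it was higher by 5.03 ± 0.31 (adjusted p = 0.000107, limma on 4 pairs). S100a8 and Ltf were well above background on the 4 rectum arrays alone, so they passed the filter only where they were high, and Csf3r, Mmp8, Elane and Epx were so on no array. The summed signal of the 9 tested genes was 1.47 to 2.48 in rectum and 0.165 to 0.210 in colon. Of 10 fibroblast genes 3 were higher, with sums of 94.0 to 143 in rectum and 65.2 to 109 in colon. Of 7 tested squamous epithelium genes 5 were higher and none lower, 4 of these 5 being well above background on all 8 arrays. Their sums were 5.70 to 9.05 in rectum and 3.24 to 4.31 in colon. Mast cell genes went both ways, 4 of 6 tested higher and 2 lower, with 1 of the higher ones well above background on all 8 arrays. Of 9 tested T and NK cell genes 5 were lower, 3 of these being well above background on all 8 arrays, with sums of 0.395 to 0.549 in rectum and 0.863 to 1.24 in colon. Of 10 adipocyte genes 8 were lower, 7 of these being so on all 8 arrays, with sums of 17.1 to 49.2 in rectum and 43.0 to 79.4 in colon. The part of these cells in the differences of the 8 genes was not tested.

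The second comparison was between genotypes. None of the 8 genes was called between IL18ko and WT mice (limma on 4 matched differences, adjusted p from 0.489 to 0.940), and none had an unadjusted p under 0.05. Over all genes 0.0236% were called higher and 0.0236% lower, and over all probes 13 were called and 4301 had an unadjusted p under 0.05. With the 8 arrays taken as independent samples none of the 8 was called; with genotype and housing fitted to 4 means over the tissues, Cd163 was called (0.45, adjusted p = 0.0443, limma with 1 residual degree of freedom). The mean differences ran from -0.40 ± 0.26 for Itgax to 0.45 ± 0.34 for Cd163 (SE from limma, 4 pairs). A p that misses the threshold does not show that the genotypes were alike.

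The 4 genotype pairs, each of 1 array against 1 and without a test, went different ways. In rectum under stress 7 of 8 genes were lower in IL18ko than in WT, 6 of them by at least 1.5-fold, with a median of -0.97, where 16.9% of all genes were lower by as much. Lyz2 stood at 4.83 in IL18ko against 6.21 in WT, Itgax at -3.01 against -1.66, Mrc1 at -2.00 against -0.74 and Adgre1 at -0.32 against 0.82. C1qb was the exception, at -0.66 in IL18ko against -0.75 in WT. In colon under stress all 8 were higher in IL18ko, with a median of 0.68, and 4 of them by at least 1.5-fold, where 10.9% of all genes were higher by as much. Cd163 stood at -2.41 in IL18ko against -3.97 in WT, and Adgre1 at 0.24 against -0.74. Among control mice the medians were 0.11 in rectum and -0.29 in colon; Cd163 in rectum, at -0.99 in IL18ko against -1.85 in WT, was the only one of the 8 to differ by 1.5-fold there, where 7.00% of all genes were higher by as much. The test of whether the genotype difference depended on housing called none of the 8 and 0.00% of all genes (limma, 239 probes at an unadjusted p under 0.05). No further gene of the phagocyte lists was called between the genotypes in the paired fit. That count depended on the fit. In the fit to 4 means over the tissues, 3083 of the 26273 probes tested were called, 1618 higher and 1465 lower. There 5 macrophage receptors were higher and 3 lower, and 2 activation genes higher and 2 lower. In the same fit 2 growth or transcription factors were higher. Lower were 5 recruitment genes, 3 MHC class II, 3 lysosomal, 3 genes common to leukocytes and 1 dendritic cell gene. Without the rectum stress pair, 2470 probes were called, 1341 higher and 1129 lower. There 3 genes of the growth and transcription factor list were higher and 3 recruitment genes lower, and no other phagocyte list held more than 2 calls in either direction.

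The third comparison was between stress and control. None of the 8 genes was called (limma on 4 matched differences, adjusted p from 0.866 to 0.922), and none had an unadjusted p under 0.05. No gene of the array was called in either direction (0.00%), while 1016 probes had an unadjusted p under 0.05 and 23 were called by limma in the fit to 4 means over the tissues. The mean differences lay between 0.11 ± 0.15 for C1qb and 0.37 ± 0.28 for Adgre1 (SE from limma, 4 pairs), well within the spread of the pairs.

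The 4 pairs differed from each other and are described without a test, because each is 1 array against 1. In IL18ko rectum all 8 genes were lower under stress, with a median of -0.30, and only Cd163 by at least 1.5-fold, at -1.67 in stress against -0.99 in control; 2.02% of all genes were lower by as much. In WT rectum 7 of 8 were higher, with a median of 0.83, and 6 by at least 1.5-fold, against 13.9% of all genes. Adgre1 had the largest of these, at 0.82 in stress against -0.50 in control. C1qb, at -0.75 in stress against -0.68 in control, was the one that was not higher.

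In IL18ko colon all 8 genes were higher under stress by at least 1.5-fold, with a median of 0.75 and a range from 0.61 for C1qa to 0.93 for Cd163, where 7.18% of all genes were higher by as much. Lyz2 stood at 5.10 in stress against 4.31 in control, and Clec10a at -1.58 against -2.35. In WT colon 6 of 8 were lower under stress, with a median of -0.27. The largest fall there was that of Clec10a, at -2.44 in stress against -1.85 in control, and it was the only one of at least 1.5-fold, where 2.52% of all genes were lower by as much. C1qa and Itgax were higher by 0.09 and 0.03.

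**Figure D4:**
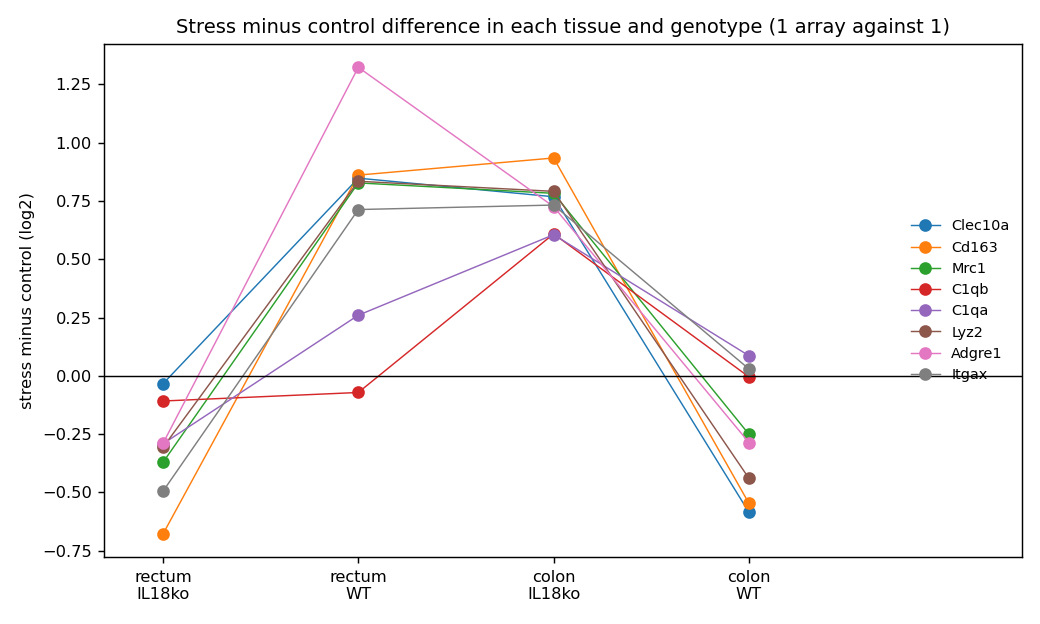
Stress minus control difference (log2, 1 array against 1) of each gene in rectum of IL18ko and WT mice and colon of IL18ko and WT mice; lines join the 4 values of a gene and mark no order. All 8 genes are above 0 in IL18ko colon and below 0 in IL18ko rectum, and 7 of 8 are above 0 in WT rectum.

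Adgre1, Cd163, Clec10a, Mrc1 and Lyz2 were higher under stress in WT rectum and IL18ko colon and lower in IL18ko rectum and WT colon, a pattern that 17.5% of all genes shared. For 6 of 8 genes WT stress rectum was the highest of the 8 arrays, as it was for 28.5% of all genes; that array also had the lowest 75th percentile of raw signal, 606 against 701 to 860 on the other 7. The same array enters the largest tissue pairs and the genotype pair of the stressed rectum, so these values are not separate observations. In IL18ko colon all 8 genes were higher in each scaling. The count higher by at least 1.5-fold was 8 in quantile-normalised values (6.08% of all genes) and 8 in the deposited ratios (4.08%). It was 6 after median centring (5.5%) and 3 after normexp background correction (2.15%). In WT rectum it was 5 or 6 in each, against 8.52% to 15.9% of all genes. In IL18ko rectum none of the 8 was higher in any scaling but the deposited ratios, where 2 were. In WT colon 2 or 3 of 8 were higher in each. These counts by scaling were chosen after the values had been seen.

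Other lists had the same signs in the 4 pairs, or did not. Fibroblast genes, 10 of 10 measured, had median stress differences of -0.33 in IL18ko rectum, 0.62 in WT rectum, 0.59 in IL18ko colon and -0.13 in WT colon. Genes common to leukocytes had medians of -0.11, 0.28, 0.41 and -0.20 in the same order, and macrophage receptors -0.21, 0.24, 0.56 and -0.25. These signs were those of the medians of the 8 genes. Dendritic cell genes had 0.11, -0.08, 0.31 and -0.09, activation genes 0.01, -0.21, 0.21 and -0.02, and smooth muscle genes 0.12, -0.78, 0.40 and -0.18, each with other signs in the rectum. Skeletal muscle genes had -2.15, 2.11, 0.41 and 0.78, with the other sign in WT colon. The part of these cells in the stress differences of the 8 genes was not tested, and no gene of the phagocyte lists was called for stress.

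The order of the 8 groups was then compared between genes, each profile centred on its own mean, with the mean absolute difference over the 8 arrays as the measure of likeness. Among the 8 genes C1qa and C1qb were the most alike, at 0.120, followed by Mrc1 and Lyz2 at 0.206, and Clec10a and Itgax were the least alike, at 1.06. Of 11792 other genes above background on all 8 arrays, those nearest to the median profile of the 8 were Clec4b1 (0.0890), a C-type lectin gene, Mfge8 (0.0968), whose product bridges dying cells to phagocytes, Prkd1 (0.104), Cfap299 (0.112) and BC048403 (0.115). Clec4b1 had levels of -2.56, -2.22, -1.54 and -2.26 in IL18ko stress, IL18ko control, WT stress and WT control rectum, against -2.55, -3.33, -3.16 and -2.89 in colon. Mfge8 had 4.51, 4.71, 5.11 and 4.64 in the same rectum groups, against 4.32, 3.80, 3.69 and 3.79 in colon. Both were thus highest in WT stress rectum, and both had IL18ko stress as the highest colon array. The median profile of the 8 genes has these features too, so the choice of the nearest genes brings them along.

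For 7 of the 8 genes the single nearest gene is given. It was Arhgap25 for Adgre1 (0.0412), Vegfc for C1qa (0.0486), Aif1l for C1qb (0.0615), Amz1 for Itgax (0.0733), Ms4a6c for Lyz2 (0.110), Abcc4 for Mrc1 (0.127) and Ttpa for Clec10a (0.150). These likenesses are given as a description, with no test.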

How the data were processed

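Gene expression was measured in 8 pools of mouse RNA on 1-colour Agilent whole mouse genome arrays. Per the file headers, the authors' scanner files were made with Feature Extraction 9.5.1.1 and hold for every spot a linear, background-subtracted signal intensity. The authors' value table gives, per the labels, a ratio over the WT control colon array. Scanner ratios correlated with it, both in log2, at r of 0.995 to 1.00 over 18277 probes. The scaling behind the authors' ratios is not given in the sources used here.

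Outlier spots were removed and spots averaged per probe, leaving 40963 of 41174 probes, of which 22857 were named through their accession (GRCm38.p6 gene table). The 75th percentile of each array was subtracted from its log2 intensities. Tests covered the 26273 probes that 4 or more of the 8 arrays flagged as well above background, and the brightest probe stood for its gene. Limma 3.58.1 (R 4.3.3) was fitted to the 4 matched differences, with 3 residual degrees of freedom, a trend of variance with level and Benjamini-Hochberg adjustment over all probes; a gene was called at an adjusted p under 0.05. Dependence on a further factor was fitted as a term. The SE comes from limma, which shares variance across probes. In single pairs a fold of 1.5 was used. The script was tested on simulated data.

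The comparisons share all 8 arrays. Nothing in the labels shows separate pools, so the p-values measure the spread between pairs of conditions. The members and the gene lists were chosen with earlier results of these data known. From each phagocyte list the 2 largest rises and 2 largest falls among called genes were named; other names are marked as picked afterwards, and some genes that the rule names are not reported here. Alternatives tried were median centring, quantile normalization, normexp (offset 50, on the median signal), the deposited ratios, other background filters, the mean of a gene's probes, no variance trend, other designs and leaving out each pair.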

Additional observations from a re-analysis of the deposited data

Results flagged for a closer look

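The stress difference had opposite signs in IL18ko and WT mice for 7 of 8 genes in the rectum and 6 of 8 in the colon. Each value rests on 4 arrays with no replicate, so this difference between the genotypes was not tested within a tissue. Among all tested genes 67.0% had opposite signs in the rectum and 54.1% in the colon. In the rectum, the stress minus control difference of IL18ko less that of WT was -1.61 for Adgre1, -1.54 for Cd163, -1.21 for Itgax, -1.20 for Mrc1, -1.14 for Lyz2, -0.88 for Clec10a and -0.55 for C1qa. In the colon it had the other sign, at 1.48 for Cd163, 1.35 for Clec10a, 1.23 for Lyz2, 1.03 for Mrc1, 1.01 for Adgre1 and 0.61 for C1qb.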

How the results depend on the processing

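Over the alternatives other than leaving out a pair, the 8 genes kept their direction and side of the threshold in 325 of 328 values, and Clec10a, Cd163, Mrc1, C1qb and C1qa were called between the tissues in each. The exceptions were Cd163 between genotypes in the fit to 4 tissue means (0.45, called), Lyz2 in the tissue-by-housing test under quantile normalization (-0.052) and C1qa in the genotype-by-housing test under normexp (0.013). Leaving out each pair in turn gave 3 to 6 called genes and 3512 to 10738 called probes between the tissues, and 3 to 2470 called probes between the genotypes, the highest without the rectum stress pair. Signs turned within the range of these values in 7 cases, none of which had been called. Between the tissues the ranges were -0.057 to 0.65 for Adgre1 and -0.0029 to 0.55 for Itgax, negative without the WT stress pair. Between the genotypes they were -0.40 to 0.15 for Clec10a, -0.24 to 0.47 for Adgre1 and -0.69 to 0.047 for Lyz2, whose highest values came without the rectum stress pair. For stress they were -0.12 to 0.42 for Cd163 and -0.061 to 0.18 for C1qb, lowest without the IL18ko colon pair.

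The fit to 4 tissue means called 1 of the 8 genes and 3083 probes between genotypes (1618 higher, 1465 lower) and 23 probes for stress, with 1 residual degree of freedom. Against 13 probes (5 higher, 8 lower), the genotype comparison called 32 with arrays as independent samples, 6 in the deposited ratios (1 higher, 5 lower) and 7 among probes above background on all arrays. With the third factor as a term, 112, 50 and 54 probes were called for tissue by genotype, tissue by housing and genotype by housing. The cause of these shifts was not tested. The main tests pair arrays by condition, and the labels number no replicates, so no replicate number could serve as a block. With 1 array a group, no difference between single arrays has an error.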
